A study of Mus musculus with 42 samples.

Results

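The sperm tail is a motile cilium wrapped in structures that other cilia lack. Its axoneme, a ring of doublet microtubules around a central pair, is bent by dynein arms and coordinated by radial spokes and the central apparatus. Around the axoneme lie the outer dense fibers, the mitochondrial sheath of the midpiece and the fibrous sheath of the principal piece, which holds glycolytic enzymes and protein kinase A anchors, and the CatSper calcium channel in the plasma membrane of the principal piece drives hyperactivated swimming. Most of these proteins are made from mRNAs of spermatids, the haploid germ cells that reshape into sperm.

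A list of 47 genes of these structures was taken from the deposited expression table, which holds 26653 genes per tissue. Of these, 46 were found under their listed symbol and 1, *Slc9a10*, was found as *Slc9c1* by its RefSeq synonym. The gene listed as *Spag6* is the copy on chromosome 16, named *Spag6l* in GENCODE vM21, and its reads may have been split with the related copy on chromosome 2.

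The series asked how tissues of male mice without the long noncoding RNA *Tug1* differ from those of wild-type mice. All mice were of the Tug1_tm1.1Vlcg strain on C57BL/6J without Neo. Wild-type mice had normal *Tug1* on both alleles, and knockout (*Tug1*-/-) mice carried *lacZ* in its place on both alleles, in every cell. RNA had been sequenced from whole snap-frozen testes, prostate, spleen, eyes, heart and liver and from mouse embryonic fibroblasts (MEFs) at passage 2, in 22 wild-type and 20 knockout samples. There were 4 wild-type and 3 knockout testes, 3 wild-type and 2 knockout prostates, and 3 samples of either genotype from each other tissue. The labels give no ages. The 8th tissue of the table was not analysed here.

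Expression was given as FPKM, a read count scaled by transcript length and library size, with 1 value per genotype and tissue into which the authors had combined the replicates. No difference below could therefore be set against the spread between mice, and no p-value is given. A gene was taken as measured in a tissue where the mean of both genotypes was at least 1 FPKM. Differences are log2((knockout + 0.1)/(wild-type + 0.1)), which understates those of genes with low values, and "called" means a ratio over 1.5 times. *Tug1* stood at 27.7 FPKM in wild-type testes and 0.402 FPKM in knockout testes, and *lacZ* at 0.0063 and 54.3 FPKM. In the other tissues *Tug1* was between 11.2 and 22.7 FPKM in wild type and at most 0.183 FPKM in knockout.

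All 47 genes were measured in testes and none was called. In knockout testes 0.753% of the 15143 measured genes were called lower and 1.17% higher. A small lower value was nevertheless shared by nearly all of the 47 genes, since 46 had a lower FPKM in the knockout, against 63.6% of all measured genes and 80.7% to 91.96% of other genes at the levels of the list. Their median difference was -0.14 on the log2 scale, with a range from -0.29 for *Catsper4* to 0.01 for *Dnah8*. The median over all measured genes was -0.06, and 45 of the 47 genes lay below it. The summed FPKM of all genes was itself lower in knockout testes, 680023 against 728941, so that rescaling each genotype to the same sum raised every difference by 0.10. Genes at 100 FPKM or more held 66.1% of the wild-type sum, at 482109 FPKM in wild type and 443751 FPKM in knockout. Rescaling therefore also removes part of any difference that abundant genes share, those of the list included. After rescaling, 35 of the 47 genes (74.5%) were lower and 12 higher, against 38.7% of all measured genes lower, and their median was -0.04 while that of all measured genes was 0.04. Most measured genes are less abundant than the list. Of all genes at 20 to 100, 100 to 500 and 500 FPKM or more, 46.1%, 64.8% and 73.7% were lower after rescaling. Together the 47 genes summed to 26130 FPKM in wild type and 23505 FPKM in knockout, which was 3.58% and 3.46% of each sum.

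**Figure D1:**
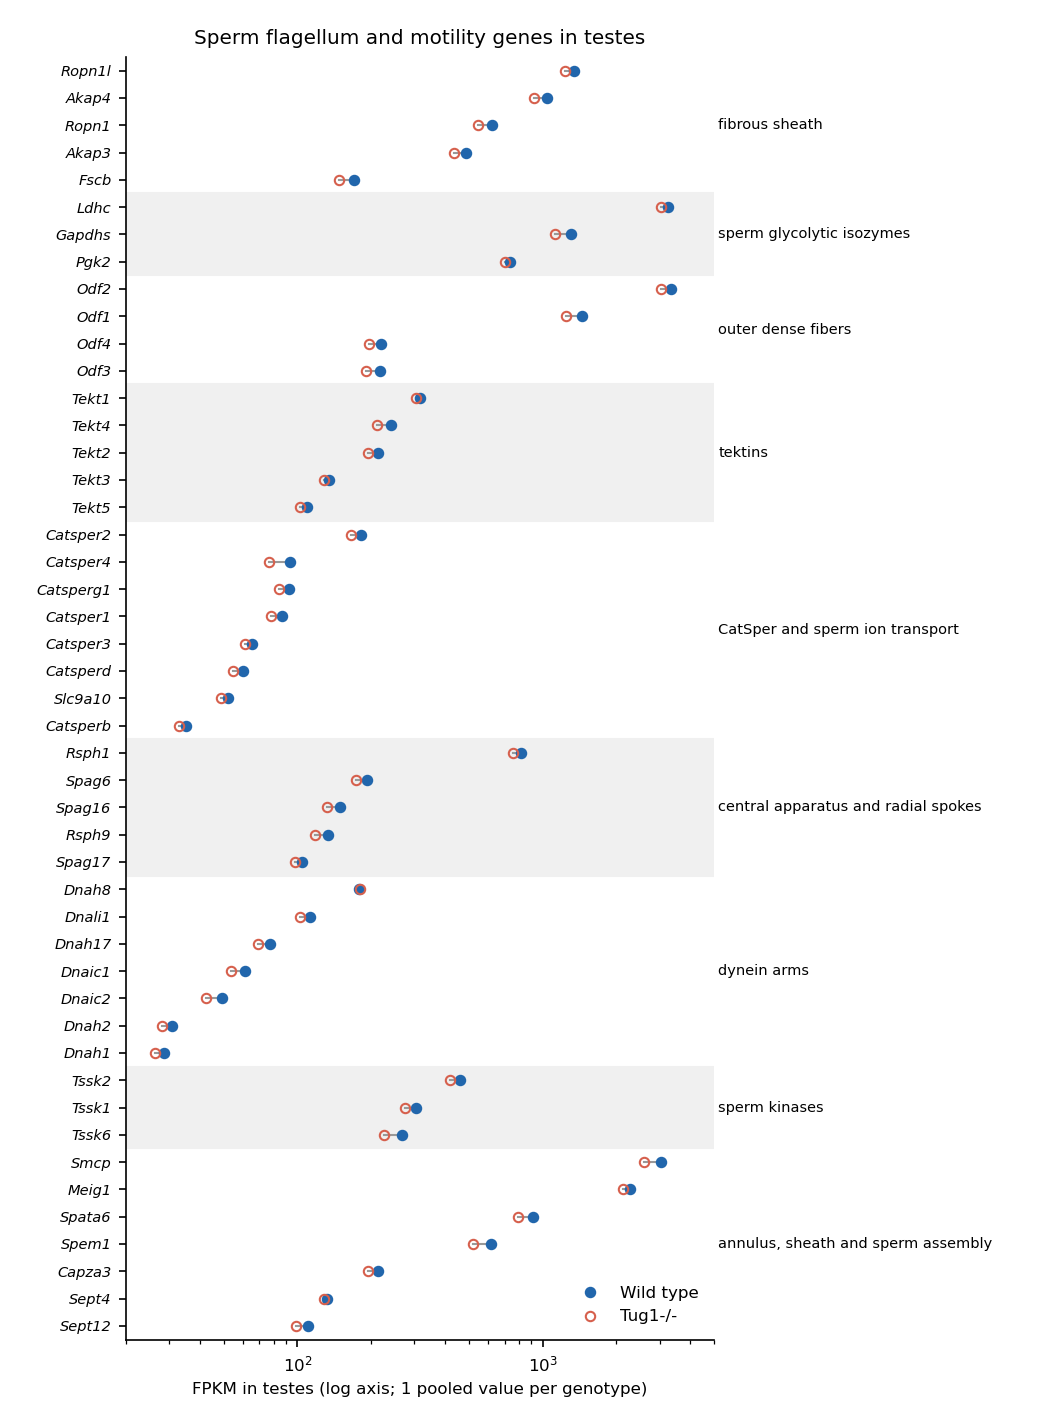
Wild-type (filled) and Tug1-/- (open) values of the 47 genes in testes, in FPKM on a log axis, ordered by wild-type level within 9 structural groups. Every open circle lies to the left of its filled circle except for Dnah8 at 177.8 and 179.6 FPKM. After rescaling both genotypes to the same sum, 12 of the 47 would lie to the right.

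The fibrous sheath was lower in all 5 genes, as deposited and after rescaling, with a median of -0.18 and -0.08. *Akap4*, the X-linked A-kinase anchor that is the main protein of the sheath, was at 1047 FPKM in wild type and 923.4 FPKM in knockout. *Akap3*, a related anchor of the sheath, was at 484.9 and 435.8 FPKM. The ropporins, which bind these anchors through a docking domain like that of protein kinase A, differed in level but not in direction. *Ropn1* was at 619.9 and 546.4 FPKM, and *Ropn1l* was at 1349 and 1234 FPKM. *Fscb*, a binding partner of the calcium-binding sheath protein *Cabyr*, was the lowest of the group at 170.1 and 147.7 FPKM and had its largest difference, -0.20.

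The sperm glycolytic isozymes ranked among the most abundant mRNAs of the testes. *Ldhc*, the sperm lactate dehydrogenase, was at 3259 FPKM in wild type, the 9th highest of wild-type testes, and 3041 FPKM in knockout. *Gapdhs*, the sperm glyceraldehyde phosphate dehydrogenase, was at 1309 and 1122 FPKM. *Pgk2*, the intronless phosphoglycerate kinase that takes over from the X-linked *Pgk1* in meiosis, was at 736.8 and 701.3 FPKM. Their median was -0.10 as deposited and 0.00 after rescaling, where *Ldhc* and *Pgk2* were no longer lower. Of the somatic isozymes, 2 of 3 had a higher value in the knockout, as deposited and after rescaling. *Gapdh* was at 79.5 FPKM in wild type and 89.9 FPKM in knockout, and *Pgk1* at 4.68 and 5.34 FPKM, values made uncertain by the processed copies of both genes. The ratio of *Gapdhs* to *Gapdh* was thus 16.5 in wild type and 12.5 in knockout, and that of *Pgk2* to *Pgk1* was 157 and 131. *Ldha*, by contrast, was lower by nearly the same proportion as *Ldhc*, at 703 and 648 FPKM, and their ratio was 4.64 and 4.69.

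The 4 outer dense fiber genes were all lower, as deposited and after rescaling, with medians of -0.18 and -0.08. *Odf2*, a coiled-coil protein of the fibers that also occurs in centriole appendages of other cells, was the highest of the 47 genes in wild type at 3331 FPKM. It was at 3028 FPKM in the knockout, just under *Ldhc*. *Odf1*, the cysteine-rich fiber protein, was at 1451 and 1250 FPKM and had the largest difference of the group, -0.22. *Odf3* was at 216.9 and 190.8 FPKM and *Odf4* at 220.2 and 195.4 FPKM.

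The tektins, filament proteins that line the doublet microtubules, differed least among the larger structures. As deposited all 5 were lower with a median of -0.10, but after rescaling 3 were lower and 2 higher with a median of -0.0031. *Tekt1* was at 316.3 FPKM in wild type and 303.3 FPKM in knockout, and *Tekt3* at 134.9 and 128 FPKM. *Tekt2* was at 213.1 and 194.9 FPKM and *Tekt5* at 109.7 and 102.2 FPKM. *Tekt4* stood apart at 241.8 and 211.1 FPKM, a difference of -0.20 as deposited and -0.10 after rescaling.

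The CatSper channel genes ranged from 35.1 FPKM for *Catsperb* to 181.7 FPKM for *Catsper2* in wild type. All 8 genes of the group were lower as deposited and 5 of 8 after rescaling, with medians of -0.13 and -0.03. The 4 pore-forming subunits differed in size of difference. *Catsper4* had the largest difference of all 47 genes, at 93.65 and 76.81 FPKM (-0.29). *Catsper1* was at 86.38 and 78.35 FPKM, *Catsper2* at 181.7 and 164.7 FPKM, and *Catsper3* at 65.05 and 60.94 FPKM. The auxiliary subunits, which stand on the outside of the channel, had differences between -0.09 and -0.14. *Catsperb*, with the smallest, was at 35.1 and 33.03 FPKM, *Catsperd* at 60.01 and 54.59 FPKM, and *Catsperg1* at 92.18 and 84.26 FPKM. *Catsperg1* has a close paralog, *Catsperg2*, at 43.8 and 37.2 FPKM, and reads may have been split between them. *Slc9a10*, the sperm sodium-proton exchanger, was at 52.28 and 48.93 FPKM.

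Among the axoneme genes, those of the central apparatus and radial spokes were lower in all 5 cases as deposited and in 3 of 5 after rescaling, with medians of -0.15 and -0.05. *Rsph1*, a head protein of the radial spokes, was the most abundant at 813.8 and 760.2 FPKM. *Rsph9*, also of the spoke head, was at 133.1 and 118.5 FPKM. Of the central apparatus proteins, *Spag6* was at 191.4 and 173 FPKM, *Spag16* at 149.3 and 131.5 FPKM and *Spag17* at 104.3 and 97.68 FPKM.

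The dynein arm genes were lower in 6 of 7 cases both as deposited and after rescaling, with medians of -0.14 and -0.04. The exception was *Dnah8*, a heavy chain of the outer arm, at 177.8 FPKM in wild type and 179.6 FPKM in knockout. It also had the highest level of the 7. *Dnah17*, the other outer-arm heavy chain of sperm, was at 77.05 and 69.23 FPKM. The intermediate chains of the outer arm had the largest differences of the group, with *Dnaic2* at 49.04 and 42.56 FPKM and *Dnaic1* at 61.13 and 53.57 FPKM. The inner-arm genes were the heavy chains *Dnah1* at 28.5 and 26.34 FPKM and *Dnah2* at 30.75 and 27.92 FPKM, and the light intermediate chain *Dnali1* at 112.7 and 102.2 FPKM. *Dnah1* and *Dnah2* were the least abundant of the 47 genes.

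The testis-specific serine kinases, which phosphorylate proteins of late spermatids, were lower in all 3 genes as deposited and after rescaling, with medians of -0.16 and -0.06. *Tssk6* had the second largest difference of all 47 genes at 267.3 and 224.5 FPKM (-0.25). *Tssk1* was at 305.4 and 274.2 FPKM and its neighbor on chromosome 16, *Tssk2*, was at 459.7 and 418.3 FPKM.

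The genes of the annulus, the mitochondrial sheath and sperm assembly had differences from -0.24 to -0.04. All 7 were lower as deposited and 5 of 7 after rescaling, with medians of -0.17 and -0.07. *Spem1*, needed for removal of the spermatid cytoplasm, was at 616.6 and 520.4 FPKM (-0.24). *Smcp*, the cysteine-rich protein of the mitochondrial capsule, was at 3043 and 2586 FPKM (-0.23). *Spata6*, of the connecting piece between head and tail, was at 911 and 794.4 FPKM. The septins of the annulus, the ring between midpiece and principal piece, were not alike, with *Sept12* at 111 and 98.38 FPKM but *Sept4* at 131.6 and 128.1 FPKM (-0.04). *Meig1*, a cargo adaptor of the manchette, was at 2266 and 2128 FPKM, and *Capza3*, the actin-capping subunit of sperm, was at 213.9 and 194.7 FPKM.

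The order of the 47 genes by level was nearly the same in both genotypes. Of these, 29 held the same place, 12 differed by 1 place and 6 by 2 places. *Odf2* was first in wild type and *Ldhc* in knockout. Wild-type levels ran from 28.5 to 3331 FPKM while differences ran only from -0.29 to 0.01, so the order had little room to change.

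Other genes of like level also had lower values in the knockout as deposited, and after rescaling those between 20 and 100 FPKM did not. The 13 genes of the list at 500 FPKM or more had a median of -0.18, and the other 154 genes of that level had one of -0.14 with 90.3% of them lower. Between 100 and 500 FPKM the median was -0.14 for 22 genes of the list and -0.12 for 1319 others, of which 91.96% were lower. Between 20 and 100 FPKM it was -0.14 for 12 and -0.09 for 3881 others, of which 80.7% were lower. After rescaling, the medians from the highest to the lowest level were -0.081, -0.044 and -0.037 for the list and -0.042, -0.024 and 0.0091 for the others. Genes that were at least 10 times higher in wild-type testes than in any other tissue had a median of -0.13 (-0.03 after rescaling) over the 2448 measured genes outside the list, with 82.2% lower, a comparison chosen after values had been seen. These genes were selected by wild-type values alone, which favors a lower knockout value among them, so no conclusion is drawn from this comparison.

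**Figure D2:**
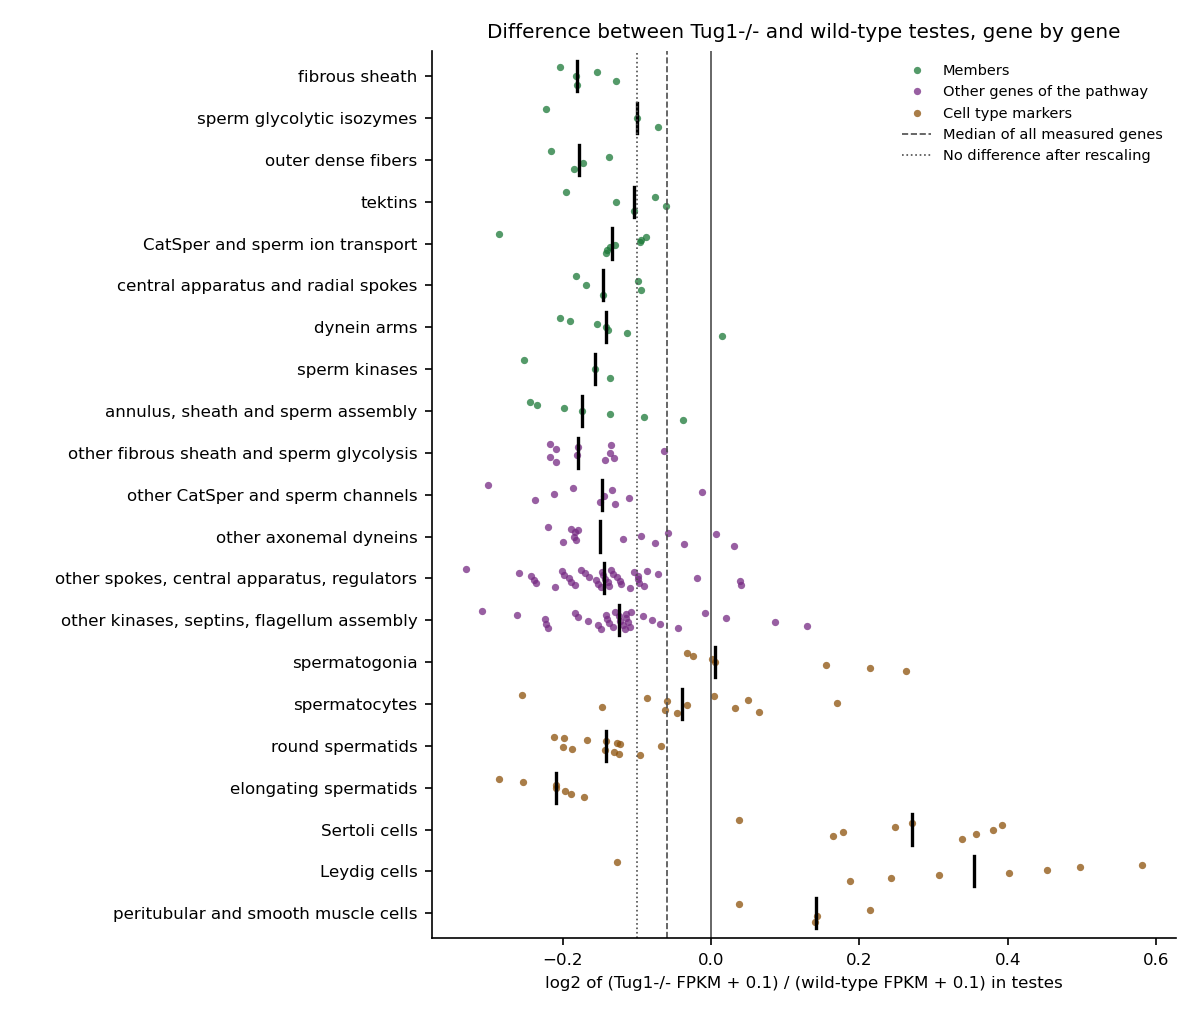
Difference of each measured gene between Tug1-/- and wild-type testes (log2 of the ratio of FPKM + 0.1), for the 9 groups of the list (green), other genes of the pathway (purple) and cell type markers (brown), with bars at group medians. Group medians of the list lie between -0.18 and -0.10, left of the median of all measured genes (dashed, -0.06). The dotted line at -0.10 marks no difference after rescaling, and the isozymes lie on it and the tektins within 0.01 of it.

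Other genes of the same structures showed the same small difference. From 5 lists of axonemal, sheath, channel and assembly genes, 111 were in the table and 105 were measured in testes. Of these, 98 (93.3%) were lower as deposited and 80 (76.2%) after rescaling, and the median was -0.14 and -0.04. As deposited, 80.7% of genes outside the list at 20 to 100 FPKM were lower, and 91.96% at 100 to 500 FPKM. The count as deposited was thus near that of other abundant genes. After rescaling, 46.1% and 64.8% of all genes at these levels were lower. None of the 105 was called, against 0.753% of all measured genes called lower and 1.17% higher. The lowest were *Rtdr1*, a radial spoke gene now named *Rsph14*, at 35.1 and 27.9 FPKM (-0.33), the kinase gene *Tssk5* at 17.3 and 14 FPKM (-0.31), and *Lrrc52*, an auxiliary subunit of the sperm potassium channel, at 32.5 and 26.4 FPKM (-0.30). The highest were the widely expressed septins *Sept6* at 17.5 and 19.1 FPKM (0.13) and *Sept7* at 23.1 and 24.5 FPKM (0.09), and the radial spoke gene *Rsph3a* at 37.7 and 38.8 FPKM (0.04). By list the medians were -0.18 for the 11 sheath and glycolysis genes, -0.15 for 10 channel genes, -0.15 for 14 dyneins, -0.14 for 38 spoke and central apparatus genes and -0.12 for 32 kinases, septins and assembly genes.

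Markers of testicular cell types differed in the same samples in both directions. In whole testes fewer cells of a type and less RNA per cell cannot be told apart. All 13 round spermatid markers and all 7 elongating spermatid markers were lower as deposited, with medians of -0.14 and -0.21, and after rescaling 11 of 13 and 7 of 7 were. Most genes outside the list at such levels were lower as deposited too. At 100 to 500 FPKM 91.96% were, with a median of -0.12, and at 500 FPKM or more 90.3%, with a median of -0.14. The round spermatid median was thus near that of other genes of like level, while the elongating spermatid median was lower. The summed FPKM of the elongating spermatid markers was 42805 in wild type and 36714 in knockout, a difference of -14.2%, and that of the 47 flagellum genes differed by -10.0%. The sum of all genes, which holds both sets and many less abundant genes, differed by -6.71%. Genes at 500 FPKM or more, which include all 7 elongating spermatid markers and 13 of the list, summed to 200938 FPKM in wild type and 184676 FPKM in knockout. Spermatocyte markers had a median of -0.04 over 12 genes, positive after rescaling at 0.06, and spermatogonia 0.01 over 7.

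Somatic markers lay on the other side. All 9 measured Sertoli cell markers were higher, with a median of 0.27 and a sum of 585 FPKM in wild type and 736 FPKM in knockout. Of 8 Leydig cell markers 7 were higher, with a median of 0.35 and a sum of 1015 and 1431 FPKM, and all 4 markers of peritubular and smooth muscle cells were higher with a median of 0.14. None of these lists changed direction after rescaling. Many of these markers are less abundant than those of spermatids, and less abundant genes were less often lower. All genes at 1 to 5, 5 to 20 and 20 to 100 FPKM had medians of 0.01, -0.03 and -0.09 as deposited. After rescaling these were 0.11, 0.07 and 0.01. As deposited 47.8%, 56.9% and 80.8% of them were lower. No defining marker of these 3 cell types was at 0. Of 8 markers of motile ciliated cells 4 were measured, and all 4 were lower as deposited and after rescaling, with medians of -0.23 and -0.13. One of them, *Dynlrb2*, is also among the other axonemal dyneins above. The other 4, *Sntn*, *Ccdc153*, *Mcidas* and *Tmem212*, were at 0.248 FPKM or less in wild type. Their knockout values were higher, with differences from 0.06 to 0.66, so the 8 markers share no direction. *Foxj1*, the regulator of motile ciliogenesis, was at 42.6 and 34.6 FPKM. The part of any of these cell types in the lower values of the flagellum genes was not tested.

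The promoters of 43 of the 47 genes were available from RefSeq on GRCm38.p6, as 250 bases before and 50 after each annotated start. Motifs of 4 kinds were searched on both strands. The palindromic cAMP response element TGACGTCA, bound by CREB and CREM proteins, the latter active in spermatids, occurred in 1 of 43 genes (2.33%) and in 2.03% of all 27025 genes. Its shorter core TGACGT, which also counts every full element, occurred in 7 of 43 (16.3%) and in 8.37% of all genes. The 7 were *Gapdhs*, *Ldhc*, *Tekt1*, *Catsperd*, *Spag6*, *Dnaic1* and *Spata6*. The letters GTTGCCA, part of the X-box bound by RFX factors of ciliated cells, occurred in 1 (*Tekt1*, 2.33%, against 5.02%), and TATAAA in 1 (*Catsperg1*, 2.33%, against 15.7%). The median GC content was 53.7%, close to the 52.8% of all genes. A match of letters is a description of the sequence and shows no binding.

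The promoters printed here show the full element (*Spag6*), 2 copies of the core before 1 start (*Ldhc*), a core after the start (*Gapdhs*), the core together with the X-box letters (*Tekt1*), and for contrast the promoter of *Smcp*, a highly expressed spermatid gene with none of them. They are given 5′ to 3′ on the strand of the gene, with the searched letters in capitals. The regions are chr16:16829314-16829613 (minus strand) for *Spag6*, chr7:46861013-46861312 (plus strand) for *Ldhc*, chr7:30743632-30743931 (minus strand) for *Gapdhs*, chr11:72361833-72362132 (minus strand) for *Tekt1* and chr3:92589024-92589323 (minus strand) for *Smcp*.
Spag6: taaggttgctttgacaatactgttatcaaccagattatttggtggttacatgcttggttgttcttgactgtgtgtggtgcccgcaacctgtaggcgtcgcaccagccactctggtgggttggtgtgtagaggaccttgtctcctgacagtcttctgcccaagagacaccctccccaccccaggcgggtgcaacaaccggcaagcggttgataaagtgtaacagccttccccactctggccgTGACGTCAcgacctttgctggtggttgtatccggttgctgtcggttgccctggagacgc
Ldhc: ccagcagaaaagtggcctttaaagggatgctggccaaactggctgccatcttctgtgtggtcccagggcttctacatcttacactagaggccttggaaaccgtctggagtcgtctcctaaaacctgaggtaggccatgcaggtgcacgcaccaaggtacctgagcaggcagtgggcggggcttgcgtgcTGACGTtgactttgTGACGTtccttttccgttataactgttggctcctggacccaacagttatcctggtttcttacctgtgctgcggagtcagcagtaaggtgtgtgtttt
Gapdhs: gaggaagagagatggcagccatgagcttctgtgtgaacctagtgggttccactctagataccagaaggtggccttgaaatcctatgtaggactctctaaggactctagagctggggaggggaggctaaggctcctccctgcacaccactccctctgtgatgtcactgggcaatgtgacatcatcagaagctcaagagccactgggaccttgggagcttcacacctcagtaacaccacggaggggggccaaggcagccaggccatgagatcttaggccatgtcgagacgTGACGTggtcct
Tekt1: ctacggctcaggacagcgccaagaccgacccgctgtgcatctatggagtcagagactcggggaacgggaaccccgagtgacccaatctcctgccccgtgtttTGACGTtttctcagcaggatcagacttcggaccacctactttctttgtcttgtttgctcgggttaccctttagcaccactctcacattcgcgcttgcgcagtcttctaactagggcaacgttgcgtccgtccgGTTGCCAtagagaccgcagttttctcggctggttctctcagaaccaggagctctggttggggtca
Smcp: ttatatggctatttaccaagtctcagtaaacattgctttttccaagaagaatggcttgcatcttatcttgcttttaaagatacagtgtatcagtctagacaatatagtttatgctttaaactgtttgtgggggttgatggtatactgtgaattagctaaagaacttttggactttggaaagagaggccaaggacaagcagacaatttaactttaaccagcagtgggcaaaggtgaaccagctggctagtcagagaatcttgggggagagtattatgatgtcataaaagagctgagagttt
The full element of *Spag6* began 9 bases before the annotated start. In *Ldhc* the cores began 61 and 47 bases before the first of its annotated starts, in *Tekt1* the core began 148 and the X-box letters 15 bases before it (a further core lay 21 bases before the other annotated start, not printed), and in *Gapdhs* the core began 38 bases after it. The promoters of *Spag6* and *Tekt1* had 12 and 20 CpG dinucleotides, and that of *Smcp* had 0 with a GC content of 38%. In testes the differences of these 5 genes ran from -0.06 for *Tekt1* to -0.23 for *Smcp*.

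By GENCODE vM21 the 47 genes lie on 16 chromosomes, with 8 on chromosome 11, 7 on chromosome 16 and 6 on chromosome 17. *Akap4* is the only one on the X. In 5 genes, *Fscb*, *Pgk2*, *Tssk1*, *Tssk2* and *Tssk6*, every annotated transcript has 1 exon. Exon bases of 9 genes are shared with another protein-coding gene, and the library kit does not keep the strand. The longest overlap relative to the gene was that of *Tssk6*, with 375 of its 1335 exon bases in common with *Ndufa13* on the other strand, a gene at 63.9 and 60.9 FPKM. *Spag17* shared 820 of 8489 bases with *Wdr3*, at 5.24 and 6.49 FPKM. The other 7 shared between 15 and 107 bases.

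Across tissues the genes of the list were highest in testes. To set tissues side by side, each value was divided by the summed FPKM of its genotype and tissue and given per 1000000. On this scale the 47 genes summed to 35846 per 1000000 in wild-type testes and to between 43 and 262 per 1000000 in the 6 other wild-type tissues. In 45 of 47 genes the testes value was at least 10 times the highest of the other tissues, with 0.1 added to both, against 16.7% of the 15134 genes at 1 FPKM or more in wild-type testes. It was at least 100 times higher in 34 genes and 1000 times in 16. The 2 exceptions were *Rsph9*, at 183 per 1000000 in testes and 30.6 in prostate, and *Sept4*, at 180 in testes and 160 in eye. In each other tissue between 38 and 42 of the genes were under 1 FPKM in both genotypes, and between 8 and 19 were listed at exactly 0 in wild type. A listed 0 can stand for a failed estimate in this table, since the liver gene *Alb* is listed at 0 in liver.

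**Figure D3:**
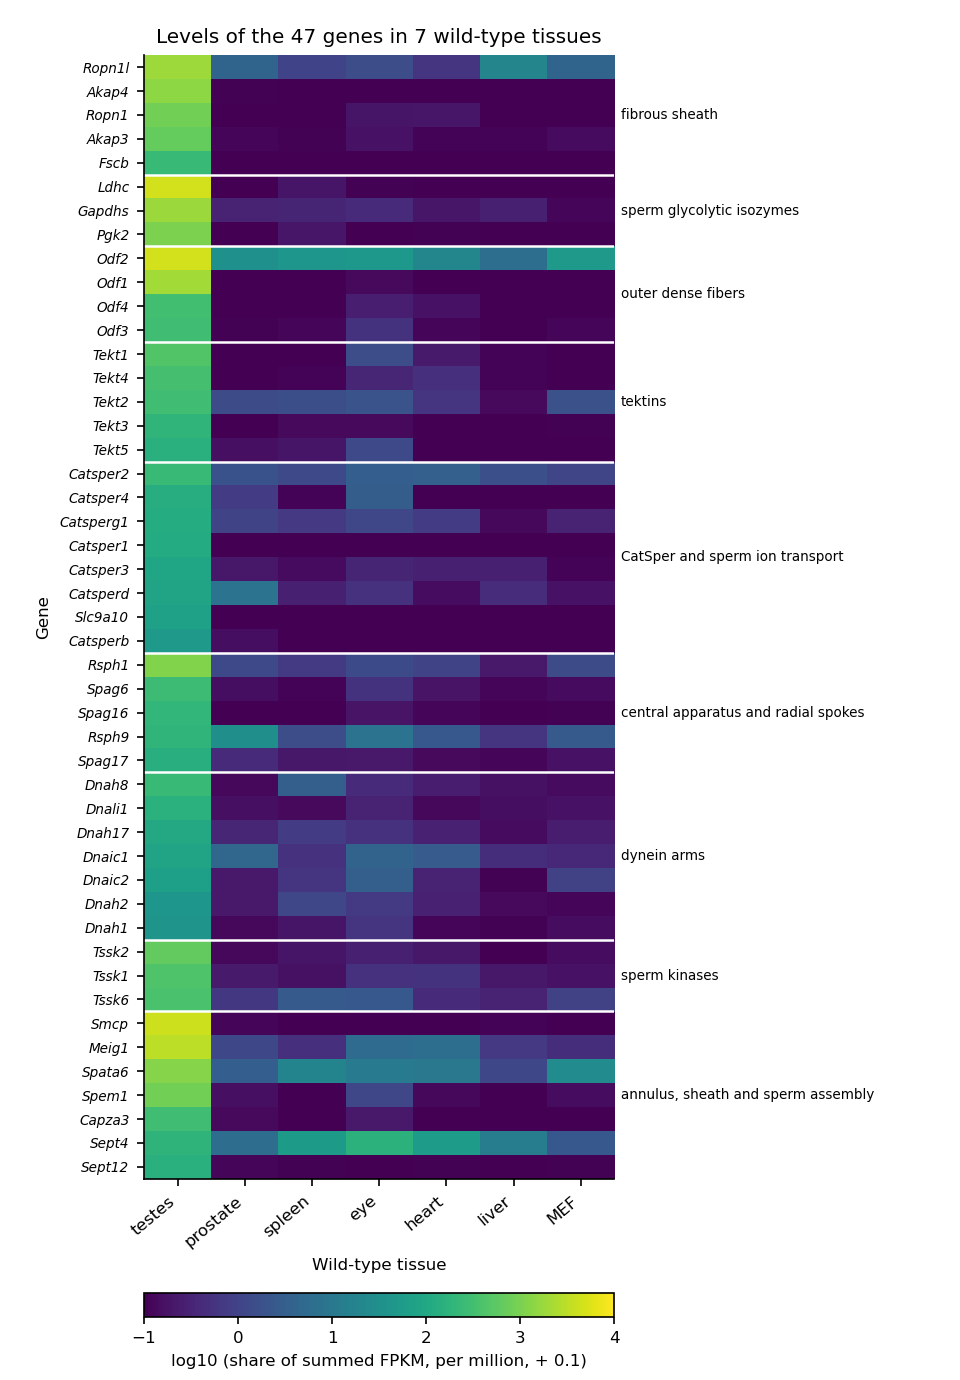
Wild-type level of the 47 genes in 7 tissues, as the base-10 logarithm of FPKM per 1000000 of each tissue's sum with 0.1 added. The testes column is bright throughout, and outside it only Odf2, Sept4, Spata6, Ropn1l, Rsph9 and a few fainter genes stand out from the dark background.

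Of the 47 genes 34 were measured in no other tissue, and the remaining 13 gave 38 measured values there. None was called in any of the 6 tissues. Prostate had 8 measured genes of the list, while 0.682% of all its measured genes were called lower and 2.4% higher. For spleen these numbers were 5, 1.1% and 4.91%, and for eye 9, 0.867% and 2.64%. Heart had 7 with background shares of 1.44% and 0.874%, liver 5 with 2.25% and 2.55%, and MEFs 4 with 2.2% and 0.975%. At such background shares, 0 calls among 4 to 9 genes are not a result about the list.

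*Odf2* and *Spata6* were measured in all 6 tissues. *Odf2* was at 23.9 FPKM in wild-type and 25.1 FPKM in knockout MEFs and at 20 and 22.4 FPKM in spleen, but at 19.2 and 16.5 FPKM in prostate and 17.8 and 15.5 FPKM in eye. It was at 11.9 and 13.5 FPKM in heart and 7.01 and 6.8 FPKM in liver, so that the knockout value was the higher in 3 tissues and the lower in 3 as deposited, and the higher in 4 after rescaling, liver included (0.11). The liver sum is uncertain because *Alb* is listed at 0 in it, and liver had the largest rescaling shift of the tissues analysed, 0.158. *Spata6* was highest in MEFs at 12.7 and 11.7 FPKM, followed by spleen at 8.42 and 6.66 FPKM, heart at 5.94 and 6.2 FPKM and eye at 4.47 and 4.39 FPKM. It was at 1.82 and 2.39 FPKM in prostate and 1.247 and 1.11 FPKM in liver.

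*Sept4*, which in nerve and other cells serves as a cytoskeletal septin, was measured in 5 tissues. It was at 60.4 and 58.6 FPKM in eye, 35.1 and 30.1 FPKM in heart, 24.8 and 21.6 FPKM in spleen, 13.7 and 13.4 FPKM in liver and 3.61 and 3.02 FPKM in prostate. All 5 knockout values were the lower ones as deposited, with differences from -0.25 to -0.03, while in liver the value was the higher after rescaling (0.12), which rests on the same uncertain liver sum.

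*Ropn1l* had its 1 sizeable value outside testes in liver, at 21.3 and 22.8 FPKM. It was at 2.37 and 2.46 FPKM in prostate and 1.97 and 1.33 FPKM in MEFs, the difference closest to a call (-0.54). *Rsph9* was at 18.6 and 17.1 FPKM in prostate, 2.99 and 3.03 FPKM in eye, 1.42 and 1.13 FPKM in heart and 1.27 and 1 FPKM in MEFs. *Catsperd* was measured outside testes only in prostate, at 4.75 and 4.53 FPKM.

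The remaining genes were near the limit of 1 FPKM. The outer-arm intermediate chain gene *Dnaic1* was at 1.43 and 1.74 FPKM in eye, 1.56 and 1.7 FPKM in heart and 2.68 and 2.86 FPKM in prostate. Its partner *Dnaic2* was measured only in eye, at 1.2 and 0.817 FPKM. *Catsper2* was between 1.03 and 1.98 FPKM in 4 tissues, and *Meig1* was at 3.82 and 3.23 FPKM in heart and 2.11 and 1.92 FPKM in eye. *Dnah8* and *Tssk6* were measured in spleen, at 1.515 and 1.509 FPKM and at 1.22 and 1.04 FPKM, and *Catsper4* in eye at 1.08 and 0.993 FPKM. Under the limit, *Dnaic1* in liver and *Sept4* in MEFs reached 1 FPKM in 1 genotype only, at 0.394 and 1.04 FPKM and at 1.14 and 0.707 FPKM.

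Markers of motile ciliated cells, another source of axonemal mRNAs, were mostly at or near 0 outside testes. Of 8 markers at most 1, *Tppp3*, reached 1 FPKM in any of the 6 other wild-type tissues, and *Foxj1* was under it in all 6.

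**Figure D4:**
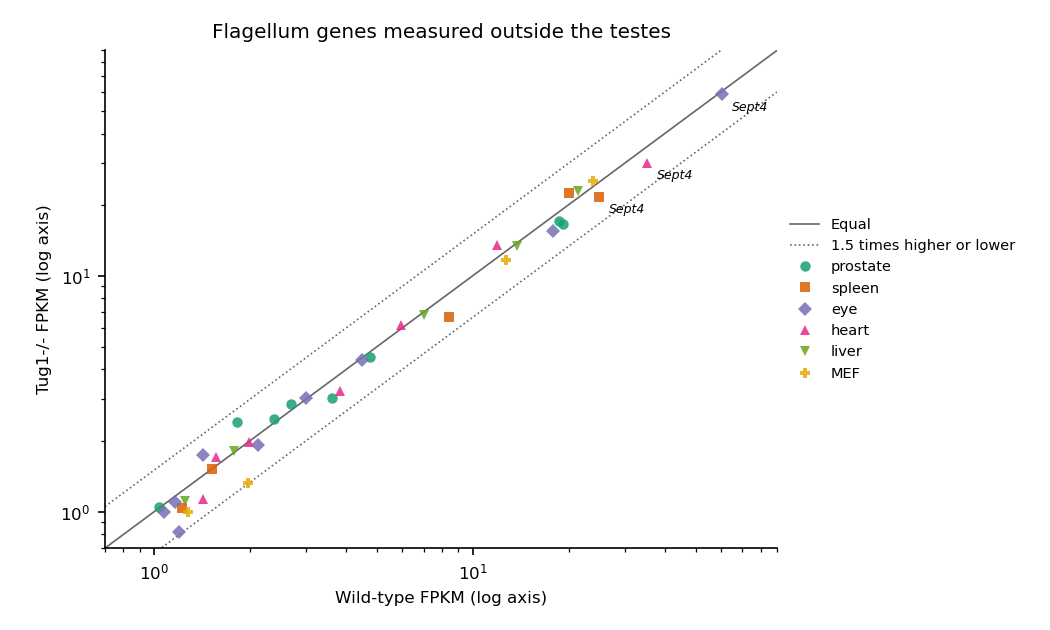
Wild-type against Tug1-/- FPKM, both on log axes, for the 38 measured values of 13 genes in 6 tissues outside testes. All points lie between the dotted lines that mark a ratio of 1.5 times, and Sept4 in eye is the highest at 60.4 and 58.6 FPKM.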

How the data were processed

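RNA of testes, prostate, spleen, eyes, heart, liver and MEFs had been sequenced from TruSeq v2 libraries of polyA RNA, which do not keep the strand. The submitters' processing notes name CASAVA 1.8.2, TopHat2, Cuffdiff and mm10, whereas the paper's methods describe read counting and DESeq2. The authors' deposited table gives 1 value per gene, genotype and tissue, with replicates pooled, taken here as FPKM from the Cuffdiff layout, since its header names no unit. Sample depths are unknown. Its fold changes, test statistics, p-values and q-values are the authors' comparisons and were not used. The table also holds 2 groups of a tissue that was not analysed here.

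Differences were computed with a pseudocount of 0.1 FPKM over genes with a mean of at least 1 FPKM and called over 1.5 times, with percent of all genes called as background. The genes, groups and lists were chosen with earlier results of these data known. Groups of up to 5 genes are given in full, and larger ones at least by their highest level and their largest and smallest differences. Of the other pathway genes, the 3 largest differences in each direction are named. Positions came from GENCODE vM21 and promoters from RefSeq (GRCm38.p6). Alternatives were pseudocounts of 1 and 0.01, no filter or at least 5 FPKM, rescaling to 1000000, centring on the median gene, and ratios of 2 and 1.25. Steps were tested on simulated data. Python 3.11.15, numpy 2.4.6, pandas 2.3.3 and matplotlib 3.10.9 were used.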

Additional observations from a re-analysis of the deposited data

How the results depend on the processing

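Rescaling each genotype to the same summed FPKM raised the differences in testes by 0.10 (log2), because the sum was lower in the knockout. The median of the 47 genes was then -0.041, of the fibrous sheath -0.081, outer dense fibers -0.078, annulus, sheath and assembly genes -0.074, kinases -0.056, central apparatus and spokes -0.045, dynein arms -0.042, CatSper and ion transport -0.033 and tektins -0.0031. That of the glycolytic isozymes was 0.00016, too small to give a direction. As single genes, 42 of 47 moved by 0.1 or more and 12 were positive, against 1 as deposited. The shift was nearly the same for every gene and close to that limit, so the count of 42 sets no gene apart. Centring on the median gene left 45 of 47 negative, and both pseudocounts and both filters left 46 of 47 negative. No gene of the list was called in testes under any alternative run. In the 6 other tissues, where 0 were called, dropping the filter on level gave 9 calls lower and 4 higher, all of values under 1 FPKM on average, and the lowest of the ratio limits tried gave 3 lower and 1 higher. The share of all genes called under these settings is not given here, so these counts are not a result about the list.

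No paired analysis was possible because the table holds 1 pooled value per genotype and tissue, and no replicate was left out for the same reason. The differences in testes cannot be set against variation between mice, and values near 1 FPKM have no stated counting error at an unknown depth.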
